A study of Homo sapiens with 6 samples.

Results

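The nuclear pore complex and the soluble carriers that move cargo through it were followed in RPMI-8402, an established T-ALL line (a human leukaemia of immature T cells) with stable expression of Cas9. The genes were chosen by symbol in the authors' deposited table: numbered NUP genes, importins (KPNA, KPNB, IPO, TNPO), exportins (XPO) and CSE1L, RAN, RANBP1, RANGAP1, RCC1, TPR and POM121. The rule found 53 of the 63677 entries, which stand for 51 genes, because KPNA2 and POM121 each had a second entry with no counts in any sample. RNA-seq counts came from 3 samples in which doxycycline induced guide RNAs against MYC, a transcription factor of cell growth, and from 3 samples given DMSO, the solvent. Both groups were taken at 72 hours, both came from cells with Cas9 grown in medium with tetracycline-free serum, and all 6 samples bear the genotype label MYC_KO. Doxycycline without guides was not among the groups, and the dose and guide sequences were not used here. The labels do not state that replicates were cultured apart, so each p-value reflects variation among the 6 libraries, which could be technical in origin.

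Nuclear pores are large ring-shaped assemblies in the nuclear envelope. A scaffold of Y-shaped complexes and an inner ring anchors them, proteins rich in phenylalanine-glycine (FG) repeats fill the channel, and filaments and a basket project into the cytoplasm and the nucleus. Importins and exportins carry proteins and RNA through the channel, and the small GTPase RAN, loaded with GTP in the nucleus and made to hydrolyse it in the cytoplasm, sets the direction of travel. Growing and dividing cells, leukaemic T cells among them, use this machinery to import ribosomal proteins and export ribosomal subunits, and XPO1 is a drug target in blood cancers.

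Total counts ran from 25819386 to 26214598 in doxycycline samples and from 23121255 to 25412493 in DMSO samples. MYC (ENSG00000136997) had 459, 431 and 431 CPM (counts scaled to library size) in doxycycline replicates 1, 2 and 3, against 409, 422 and 407 CPM in DMSO replicates 1, 2 and 3 (log2 fold change 0.09, SE 0.0489, edgeR adjusted p = 0.160). All 3 doxycycline samples lay above all 3 DMSO samples without passing the test; MYC was called higher after upper-quartile scaling (edgeR adjusted p = 0.0357) and by library size alone (0.0281). RNA of an edited gene can still be counted, and no cut site is given, so this level does not check the labels. Of 10 T lineage leukaemia markers 9 had enough counts to test, and CD1A had 3 to 11 counts a library. The summed level of the T lineage list was 2619 to 2762 CPM in doxycycline and 2610 to 2710 CPM in DMSO samples, but single markers moved apart: CD7 (log2 0.48, edgeR adjusted p = 6.52e-07) and CD5 (0.23, adjusted p = 0.000938) rose, CD3G fell (-0.24, adjusted p = 0.000920) and the other 6 tested did not pass. With a correction for GC content and length described further on, CD7 (0.34), CD5 (0.13) and CD2 (0.19) were called higher and CD3G (-0.07) was not called. Of B cell markers, MS4A1 was at 0 and CD79A averaged 6.02 ± 1.28 CPM in doxycycline and 3.09 ± 0.511 CPM in DMSO samples (SD, n = 3 each), and was called higher. Myeloid markers summed to 1.64 to 1.97 CPM in doxycycline against 0.909 to 1.19 CPM in DMSO samples. Most of this was MPO, at a mean of 1.35 CPM in doxycycline and 0.609 CPM in DMSO samples. MPO was called higher (log2 1.14, edgeR adjusted p = 0.00280), also with the correction (1.03, adjusted p = 0.0111). CD14, LYZ and CSF1R had too few counts to test. Fibroblast markers summed to 47.3 to 53.0 against 39.9 to 40.3 CPM, nearly all from COL1A1 with COL1A2 at 0. COL1A1 was called higher (log2 0.31, edgeR adjusted p = 0.000373) but not with the correction (0.08, adjusted p = 0.241). Epithelial markers summed to under 0.08 CPM in every library, with EPCAM at 0. The part of these marker levels in the results was not tested.

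In the doxycycline samples, genes of nuclear transport were mostly lower and by small amounts. Of the 49 members with enough counts to test, 29 fell and 1, NUP210, rose (edgeR quasi-likelihood test, Benjamini-Hochberg adjusted p under 0.05). That is 59.2% called lower, where 15.5% of all 15492 tested genes were, and 2.04% called higher, where 13.8% of all were. Over all genes 47.0% of calls were higher, against 64.4% after upper-quartile scaling and 63.2% by library size alone. Under these scalings 21 and 22 members fell, where 10.2% and 10.4% of all tested genes did. The median log2 fold change of the tested members was -0.17, against -0.00072 over all tested genes, and the members ran from -0.38 to 0.16. In 32 members every doxycycline sample lay below every DMSO sample and in 3 every one lay above, or 65.3% without overlap in the lower direction; among all tested genes 21.0% were lower and 20.7% higher without overlap. Taken as a sum, member genes made up 9787, 9728.5 and 9769.9 CPM in doxycycline replicates 1, 2 and 3, against 10793, 10729 and 10892 CPM in DMSO replicates 1, 2 and 3. All 3 doxycycline sums lay below all 3 DMSO sums. In bulk RNA, fewer cells of a kind and less RNA per cell cannot be told apart.

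**Figure D1:**
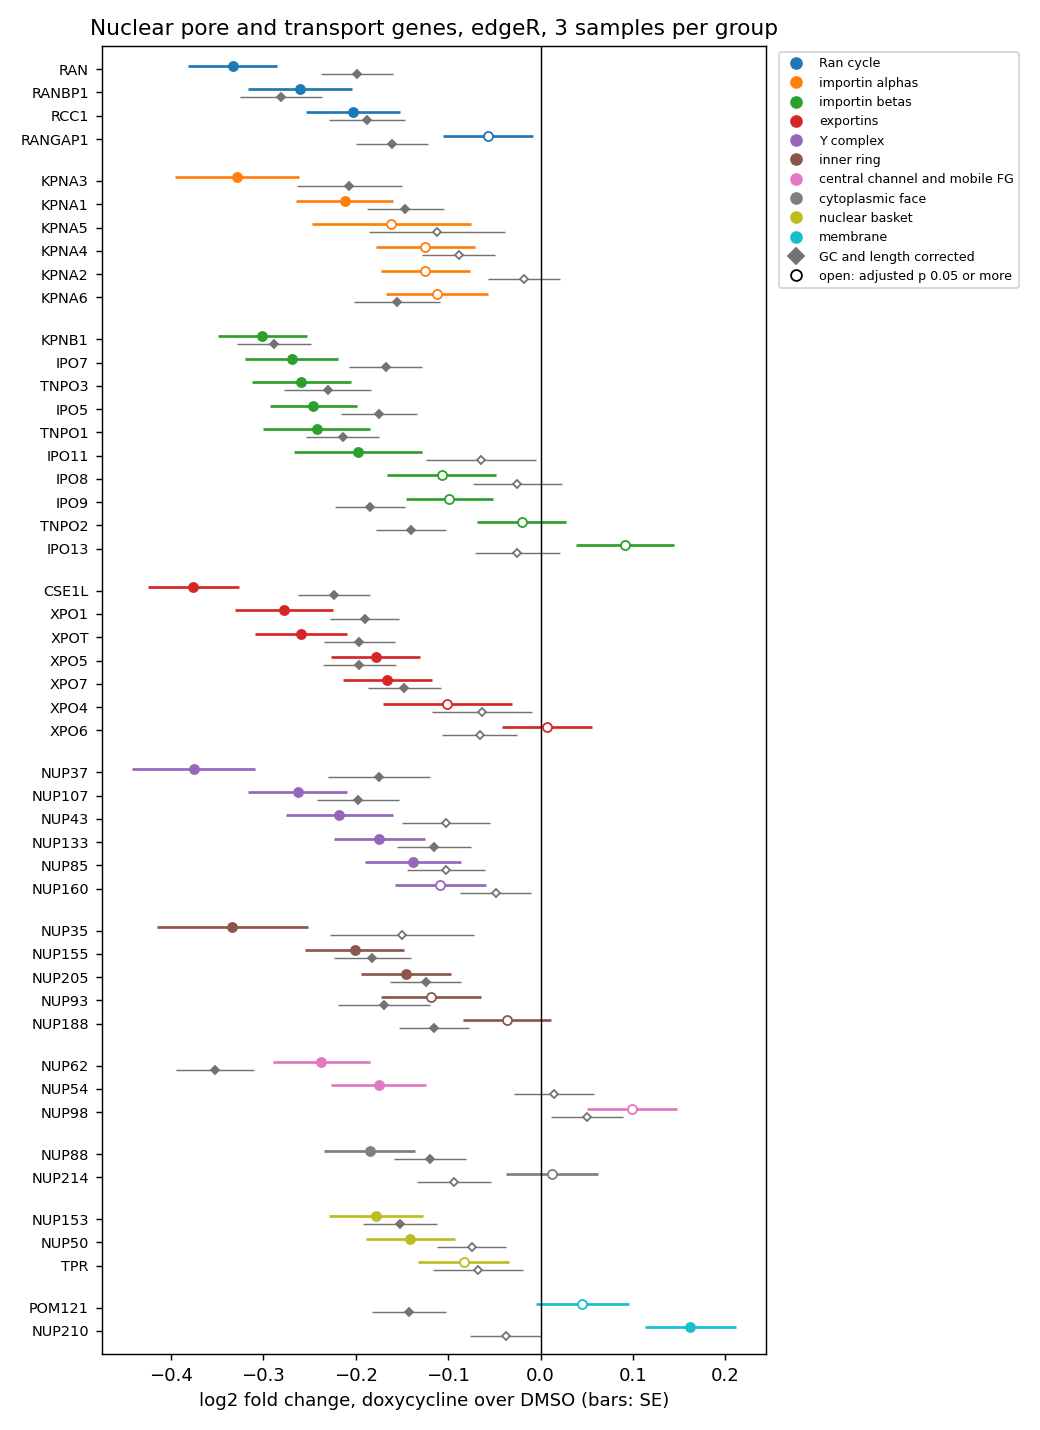
Log2 fold change of each tested member, doxycycline over DMSO, grouped by role (circles), with grey diamonds for the fit corrected for GC content and length; bars are standard errors, and open symbols did not pass an adjusted p of 0.05. IPO4, at under 1 CPM, is not drawn. Most circles lie left of 0, and NUP210 is the filled circle to the right of it.

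The libraries differed in how strongly counts followed GC content, and this moved with treatment. The deviation of log2 CPM from each gene's mean over all 6 libraries was set against GC content in 10695 genes. Its slope per 10 percentage points was 0.0936, 0.0295 and 0.0440 in doxycycline replicates 1, 2 and 3, against -0.0767, -0.00606 and -0.0843 in DMSO replicates 1, 2 and 3. These slopes are relative to the mean of the libraries, so a sign is not a library's own dependence on GC content. Members were poorer in GC than other genes, with a median of 44.4% against 48.5% over all tested genes, and across the 49 members the fold change followed GC content (Pearson r = 0.64, Spearman rho = 0.56; genes of the same libraries, not independent). A fit corrected for the trend of each library with GC content and transcript length was therefore run as well, and its values are given as corrected. In that fit 30 of 49 members fell and 0 rose (0 also at an unadjusted p under 0.05), at a median of -0.15, where all tested genes gave 11.4% lower and 10.8% higher. Of the 29 that fell without the correction, 23 also fell with it; NUP35, NUP43, NUP50, NUP54, NUP85 and IPO11 did not pass, and 7 others did: RANGAP1, KPNA6, IPO9, TNPO2, NUP93, NUP188 and POM121. A treatment response that itself ran with GC content would be taken out by this fit as well.

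**Figure D2:**
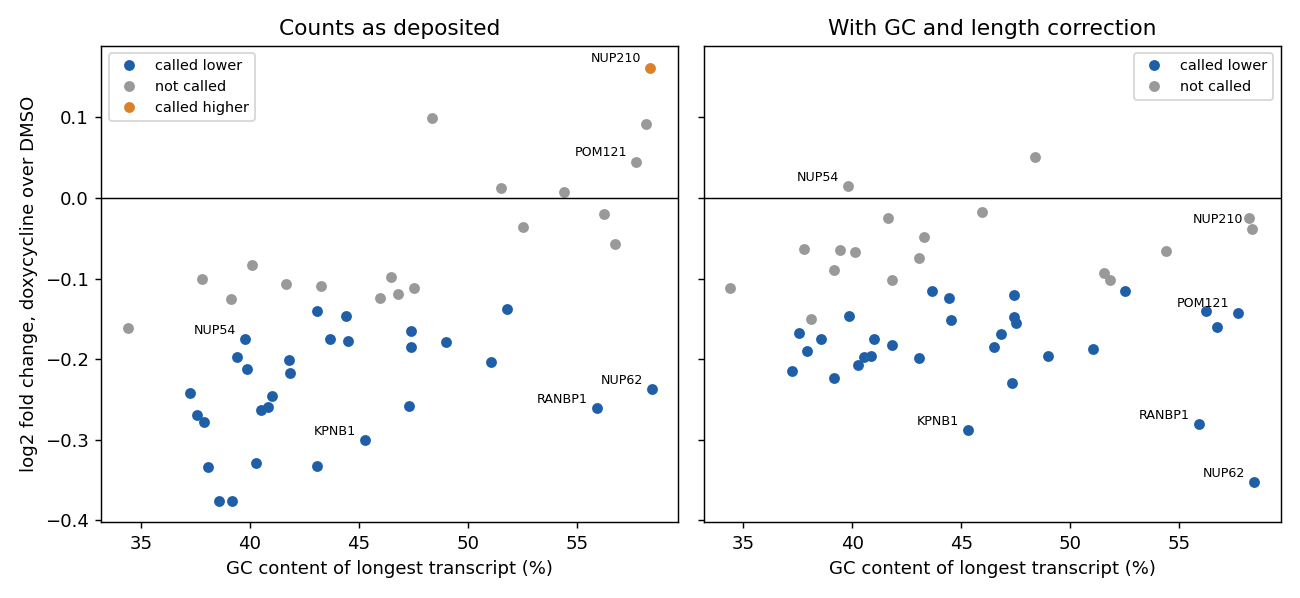
Log2 fold change against the GC content of each member's longest transcript, before (left) and after (right) the correction; points are members other than IPO4, coloured by call. On the left GC-poor members lie lowest and NUP210, at 58.3% GC, highest; RANBP1 and NUP62 are GC-rich and low in both. On the right the trend with GC is near 0 (r = 0.02) and most points stay below 0.

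The Ran cycle was lower in 3 of its 4 genes, and in none higher (0 also at unadjusted p under 0.05 and by DESeq2). Over all tested genes 15.5% were called lower. RAN (ENSG00000132341), the GTPase itself, had 373, 381 and 372 CPM in doxycycline samples, against 464, 487 and 468 CPM in DMSO samples. It fell by 20.6%, a log2 change of -0.33 (SE 0.0480, edgeR adjusted p = 1.64e-05) and of -0.20 with the correction. The groups were far apart for RAN relative to their spread, with all doxycycline samples within a few CPM of each other; RAN has pseudogenes, whose named entries held 294 reads in all against 63984 for RAN. RANBP1, which helps free RAN from carriers after export, had 203, 205 and 200 CPM against 240, 268 and 222 CPM in DMSO (log2 -0.26, SE 0.0562, edgeR adjusted p = 0.00109; -0.28 corrected). RCC1, the chromatin-bound factor that loads RAN with GTP, had 225, 215 and 204 CPM in doxycycline against 247, 257 and 237 CPM in DMSO samples (log2 -0.20, SE 0.0510, edgeR adjusted p = 0.00380; -0.19 corrected). Neither gene's groups overlapped, although DMSO replicate 3 of RANBP1 and doxycycline replicate 1 of RCC1 lay nearest to the other group. In GENCODE 29 SNHG3 overlaps 6.2% of the exonic bases of RCC1 on the same strand. RANGAP1, which triggers GTP hydrolysis in the cytoplasm, had 213, 203 and 215 CPM in doxycycline, against 211, 226 and 221 CPM in DMSO samples. Its groups overlapped and it did not pass (log2 -0.06, SE 0.0489, edgeR adjusted p = 0.410), whereas with the correction it fell (-0.16, edgeR adjusted p = 0.00583).

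Sequence upstream of the start site was examined for the motif CACGTG, the E-box that MYC and its partner MAX are known to bind, which reads the same on both strands. Windows of 250 bases before annotated starts (RefSeq, GRCh38.p14) were matched by symbol for 44 members with 59 windows in all; KPNA4, KPNA5, KPNA7, KPNB1, NUP43, RANBP1 and XPO7 were not matched. The motif was in 9 of the 59 windows, or 15.3%, against 6.34% of all 35116 windows, 8.18% of 14141 windows of tested genes and 8.94% of 2483 windows of genes called lower. Before the correction, it stood in 6 of 25 matched members that fell (RAN, RCC1, XPO1, IPO7, KPNA3 and NUP50). It stood in 3 of 19 others (NUP188, TNPO2 and IPO4), which include NUP210L, not tested. Both are counts of genes, some with several windows, so the shares of windows above are not their background. No share per gene was computed over all tested genes. With the correction NUP188 (-0.12, edgeR adjusted p = 0.0338) and TNPO2 (-0.14, 0.0119) fell, and NUP50 (-0.07, 0.162) did not pass. A match is a description of these letters and no evidence of binding, and windows of 1 gene can overlap. The windows of RAN, XPO1 and IPO7, which fell, and of NUP188, which held the motif more than once and passed only with the correction, are shown for comparison, each 5′ to 3′ along the gene, with the motif in capitals. They lie at chr12:130871816-130872065 on the plus strand (motif at -102 from the start), chr2:61537088-61537337 on the minus strand (-44), chr11:9384402-9384651 on the plus strand (-138) and chr9:128947449-128947698 on the plus strand (first motif at -77).
RAN: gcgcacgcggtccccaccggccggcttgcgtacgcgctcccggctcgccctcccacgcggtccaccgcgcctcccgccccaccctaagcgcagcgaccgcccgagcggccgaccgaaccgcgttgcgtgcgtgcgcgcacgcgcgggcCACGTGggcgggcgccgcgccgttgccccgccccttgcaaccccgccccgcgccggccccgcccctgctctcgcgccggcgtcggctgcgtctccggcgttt
XPO1: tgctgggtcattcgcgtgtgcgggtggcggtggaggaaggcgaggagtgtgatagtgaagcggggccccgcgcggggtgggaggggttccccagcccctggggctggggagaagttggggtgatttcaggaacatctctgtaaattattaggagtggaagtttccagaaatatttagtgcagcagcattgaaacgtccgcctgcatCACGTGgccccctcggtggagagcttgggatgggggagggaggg
IPO7: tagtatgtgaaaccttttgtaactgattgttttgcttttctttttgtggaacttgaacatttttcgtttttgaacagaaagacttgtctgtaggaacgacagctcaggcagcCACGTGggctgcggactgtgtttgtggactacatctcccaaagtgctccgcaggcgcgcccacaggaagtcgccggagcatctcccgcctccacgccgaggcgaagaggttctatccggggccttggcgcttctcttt
NUP188: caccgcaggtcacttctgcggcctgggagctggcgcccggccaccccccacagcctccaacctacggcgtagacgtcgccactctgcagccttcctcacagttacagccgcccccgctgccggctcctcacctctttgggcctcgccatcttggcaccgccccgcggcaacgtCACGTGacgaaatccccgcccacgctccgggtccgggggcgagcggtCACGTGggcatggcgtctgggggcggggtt

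Importin alphas, the adaptors that hold nuclear localization signals, were the group with the fewest calls among the carriers: 2 of 6 tested fell and 0 rose (0 also at unadjusted p under 0.05 and by DESeq2), with a median of -0.14. The share called lower over all tested genes was 15.5%. KPNA3 had 34.5, 36.3 and 35.8 CPM in doxycycline samples, against 45.8, 39.5 and 48.6 CPM in DMSO samples (log2 -0.33, SE 0.0673, edgeR adjusted p = 0.000670; -0.21 corrected). KPNA1 had 78.6, 80.2 and 85.2 CPM in doxycycline, against 94.7, 90.9 and 97.2 CPM in DMSO (log2 -0.21, SE 0.0525, edgeR adjusted p = 0.00344; -0.15 corrected). For both, every doxycycline sample was below every DMSO sample, and DMSO replicate 2 was the lowest of its group. KPNA2, the most abundant importin alpha here, had 474, 456 and 467 CPM against 501, 519 and 503 CPM, with no overlap, and just missed the threshold (log2 -0.12, edgeR adjusted p = 0.0513; -0.02 with the correction). The authors' deposited table, with the authors' own scaling, does list KPNA2 as lower (-0.14, adjusted p = 0.00731). KPNA4, KPNA5 and KPNA6 had changes of -0.12, -0.16 and -0.11 and did not pass, while KPNA6 fell with the correction (-0.16, edgeR adjusted p = 0.0209). KPNA7 had 1 read in 1 library and was not tested.

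Importin betas dock cargo or adaptor at the pore, and 6 of 11 fell, 0 rose (0 also at unadjusted p under 0.05 and by DESeq2), at a median of -0.20. Among all tested genes 15.5% fell. KPNB1 (ENSG00000108424), the partner of the importin alphas, had 664, 677 and 676 CPM in doxycycline samples, against 808, 840 and 836 CPM in DMSO samples. It fell by 18.8% (log2 -0.30, SE 0.0486, edgeR adjusted p = 5.86e-05), and by nearly as much with the correction (-0.29), and the 2 sets of samples were narrow and well apart. IPO7, an importer of ribosomal proteins and histone H1, had 247, 269 and 266 CPM against 307, 308 and 328 CPM in DMSO samples (log2 -0.27, SE 0.0504, edgeR adjusted p = 0.000285; -0.17 corrected). TNPO3, which imports splicing factors of the SR family, had 119, 131 and 124 CPM in doxycycline against 139, 154 and 154 CPM in DMSO (log2 -0.26, SE 0.0535, edgeR adjusted p = 0.000730; -0.23 corrected). Neither overlapped between groups. IPO5, another ribosomal protein importer, and TNPO1, which imports hnRNP proteins, fell by 0.25 and 0.24 on the log2 scale, or 0.17 and 0.21 with the correction. IPO11 fell by 0.20 but lost the call in 5 of the 6 fits that left out a library (edgeR adjusted p from 0.0506 to 0.189, all but that without DMSO replicate 2) and with the correction (-0.06, adjusted p = 0.475). In GENCODE 29 KIF2A and LRRC70 overlap 22.6% of its exonic bases on the same strand. IPO8, IPO9 and TNPO2 had -0.11, -0.10 and -0.02, and IPO13, a carrier that works in both directions, 0.09; of these IPO9 and TNPO2 fell with the correction (-0.18 and -0.14), and IPO13 was at -0.03. IPO4 held only 11 to 24 reads a library, and in GENCODE 29 a same-strand gene, AL136295.4, covers 69.3% of its exonic bases, so its count is uncertain.

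**Figure D3:**
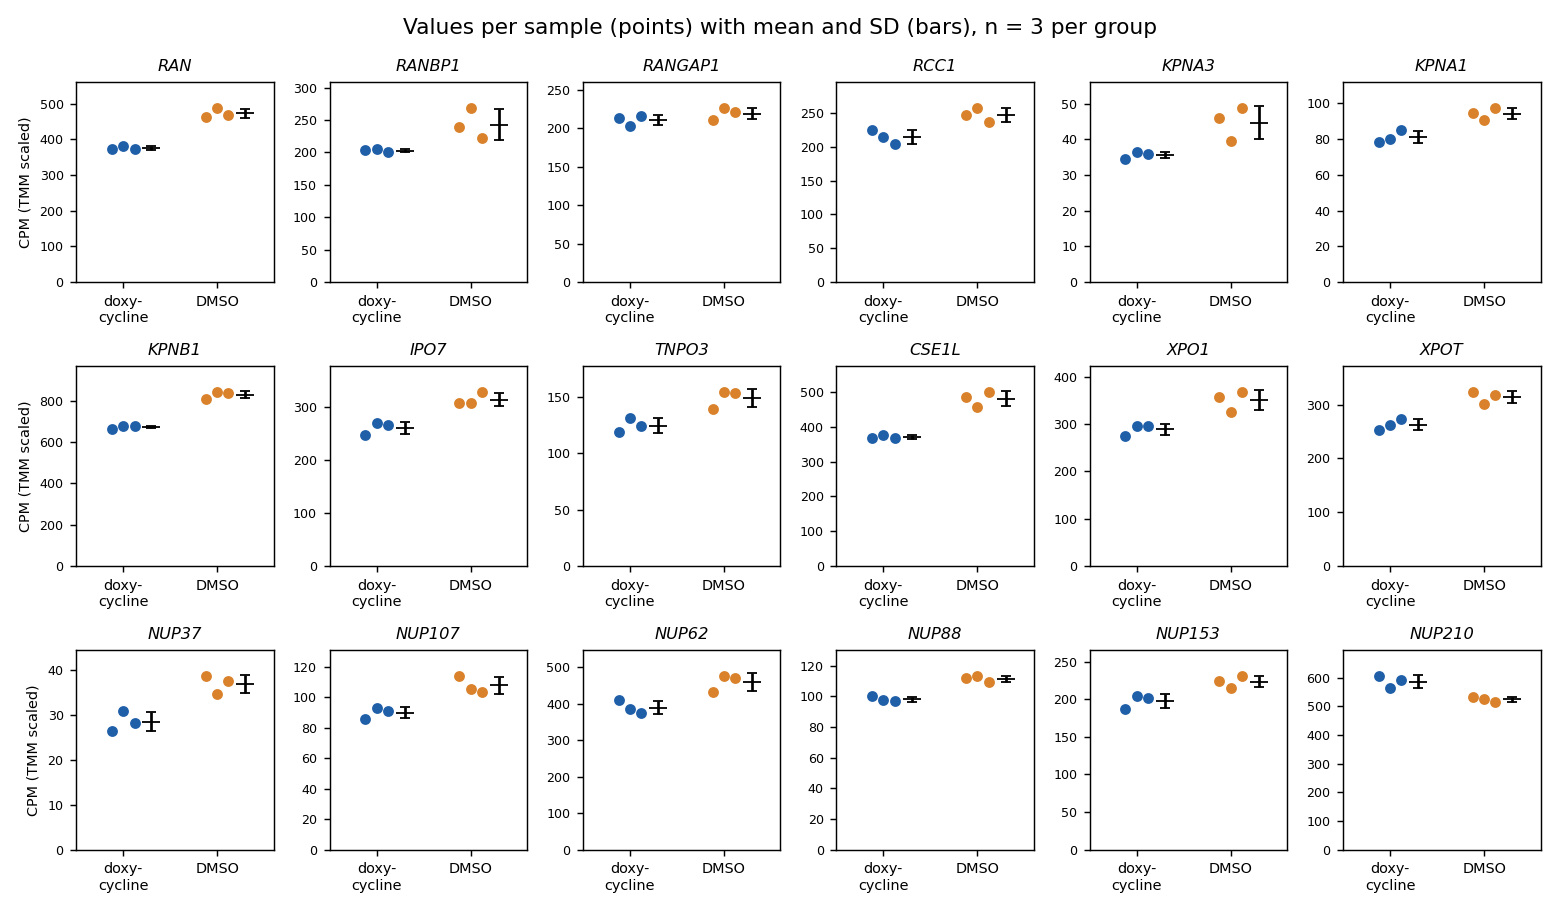
CPM with TMM scaling in each sample for 18 members, doxycycline left and DMSO right in every panel; points are samples and black bars mean with SD (n = 3). For all but RANGAP1 and NUP210 the doxycycline points lie below the DMSO points, RANGAP1 overlaps and NUP210 is reversed.

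Exportins were lower in 5 of 7, with 0 higher (0 also at unadjusted p under 0.05 and by DESeq2) and a median of -0.18, and the same 5 fell with the correction. The share of all tested genes that fell was 15.5%, and 11.4% with the correction. CSE1L (ENSG00000124207), which returns importin alphas to the cytoplasm, had 367, 377 and 368 CPM in doxycycline samples, against 486, 457 and 499 CPM in DMSO samples. It fell by 22.9% (log2 -0.38, SE 0.0496, edgeR adjusted p = 5.40e-06; -0.22 corrected), with NUP37 the largest fall among tested members before the correction. XPO1, the general exporter of proteins with leucine-rich signals and of ribosomal subunits, had 275, 295 and 297 CPM against 358, 326 and 367 CPM (log2 -0.28, SE 0.0527, edgeR adjusted p = 0.000327; -0.19 corrected). XPOT, the exporter of transfer RNA, had 252, 262 and 273 CPM in doxycycline against 323, 301 and 318 CPM in DMSO (log2 -0.26, SE 0.0498, edgeR adjusted p = 0.000356; -0.20 corrected). In CSE1L, XPO1 and XPOT alike, DMSO replicate 2 was the lowest of its group and still above all doxycycline samples. XPO5, which exports microRNA precursors, fell by 0.18 and XPO7 by 0.17 on the log2 scale (-0.20 and -0.15 corrected), the call on XPO7 being lost without doxycycline replicate 3 (-0.16, edgeR adjusted p = 0.0540). XPO4 and XPO6, the exporter of actin, had -0.10 and 0.01 and did not pass.

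Within the pore itself 13 of 21 tested genes fell and 1 rose, the median being -0.15. Over all tested genes 15.5% were called lower and 13.8% higher. With the correction 11 pore genes fell, where 11.4% of all genes did. The Y complex was lower in 5 of its 6 members, at a median of -0.20. In all 6 the groups did not overlap, where 21.0% of all tested genes were lower without overlap. With the correction 3 of the 6 fell, at a median of -0.11. With the replicate number as a block in the corrected fit 2 fell. NUP37 had 26.5, 30.8 and 28.1 CPM in doxycycline samples, against 38.7, 34.7 and 37.5 CPM in DMSO samples (log2 -0.38, SE 0.0669, edgeR adjusted p = 0.000174; -0.17 corrected). NUP107 had 85.7, 93.1 and 90.8 CPM against 114, 106 and 104 CPM (log2 -0.26, SE 0.0532, edgeR adjusted p = 0.000597; -0.20 corrected). NUP43 had 61.6, 68.7 and 61.5 CPM in doxycycline against 74.2, 70.5 and 78.5 CPM in DMSO (log2 -0.22, SE 0.0580, edgeR adjusted p = 0.00597; -0.10 and adjusted p = 0.131 corrected). Doxycycline replicate 2 was the highest of its group in all 3 of these genes, and for NUP43 it lay just under the lowest DMSO sample. NUP133 fell by 0.17 and NUP85 by 0.14 on the log2 scale (-0.12 corrected, still called, and -0.10, not called), and NUP160 had -0.11 and did not pass (edgeR adjusted p = 0.0994). NUP133 was not called when DMSO replicate 1 (edgeR adjusted p = 0.0543) was left out, nor with doxycycline replicate 1 left out (0.0510), and NUP85 in none of the 6 fits that left out a library (edgeR adjusted p from 0.0540 to 0.145).

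The inner ring, which ties the scaffold to the channel, was lower in 3 of 5 members, where 15.5% of all tested genes were. NUP35, a small membrane-binding component, had 12.5, 11.6 and 11.4 CPM in doxycycline samples, against 15.7, 14.0 and 15.0 CPM in DMSO samples (log2 -0.33, SE 0.0821, edgeR adjusted p = 0.00328; -0.15 and adjusted p = 0.174 corrected). NUP155 had 72.2, 75.3 and 79.1 CPM against 86.5, 83.5 and 90.5 CPM (log2 -0.20, SE 0.0537, edgeR adjusted p = 0.00609; -0.18 corrected). NUP205 had 159, 166 and 166 CPM in doxycycline against 188, 175 and 180 CPM in DMSO (log2 -0.15, SE 0.0488, edgeR adjusted p = 0.0251; -0.12 corrected). None of the 3 overlapped between groups, but NUP205 lost its call with DMSO replicate 1 left out (edgeR adjusted p = 0.128) and with doxycycline replicate 1 (0.109), 2 (0.0521) or 3 (0.0637) left out. NUP93, which links the ring to the channel proteins, and NUP188 had -0.12 and -0.04 and did not pass, and both fell with the correction (-0.17 and -0.12).

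Of the channel and mobile FG proteins 2 of 3 fell, against 15.5% of all tested genes. NUP62, of the central channel, had 409, 384 and 374 CPM in doxycycline samples, against 431, 475 and 469 CPM in DMSO samples (log2 -0.24, SE 0.0524, edgeR adjusted p = 0.00134). With the correction NUP62, a GC-rich gene at 58.4%, fell by 0.35, the largest fall among members in that fit; in GENCODE 29 IL4I1 and AC011452.1 overlap part of its exons on the same strand. Its partner NUP54 had 78.9, 77.0 and 79.5 CPM against 91.9, 86.1 and 87.9 CPM (log2 -0.18, SE 0.0513, edgeR adjusted p = 0.0115), yet stood at 0.01 with the correction (adjusted p = 0.848). NUP54 also lost its call with DMSO replicate 1 left out (edgeR adjusted p = 0.0738) and with doxycycline replicate 2 left out (0.0536). NUP98, known for leukaemic gene fusions, was higher in every doxycycline sample than in any DMSO sample without passing the test (log2 0.10, SE 0.0487, edgeR adjusted p = 0.128; 0.05 corrected).

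On the cytoplasmic face, NUP88 had 100.0, 97.5 and 97.0 CPM in doxycycline samples, against 112, 113 and 110 CPM in DMSO samples (log2 -0.18, SE 0.0491, edgeR adjusted p = 0.00583; -0.12 corrected). NUP214, to which NUP88 binds, overlapped between groups at 0.01. Of the nuclear basket, NUP153 had 187, 204 and 201 CPM against 224, 215 and 231 CPM (log2 -0.18, SE 0.0504, edgeR adjusted p = 0.00921; -0.15 corrected). NUP50, a cofactor of importin alpha release, had 176, 186 and 184 CPM in doxycycline against 203, 197 and 202 CPM in DMSO (log2 -0.14, SE 0.0480, edgeR adjusted p = 0.0279; -0.07 and adjusted p = 0.162 corrected). NUP88, NUP153 and NUP50 had no overlap, and TPR, the basket's coiled-coil backbone, had -0.08 with overlap. With doxycycline replicate 1 left out, NUP153 (edgeR adjusted p = 0.0729) and NUP50 (0.131) did not pass, and NUP50 was also lost without DMSO replicate 1 (0.0873), DMSO replicate 3 (0.0509) or doxycycline replicate 3 (0.0750).

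Of the members that span the envelope, NUP210 and POM121 were tested, and neither was lower before the correction. NUP210 (ENSG00000132182), a transmembrane glycoprotein known to matter in T cells, had 605, 563 and 591 CPM in doxycycline samples, against 531, 526 and 516 CPM in DMSO samples. It rose by 11.9% (log2 0.16, SE 0.0492, edgeR adjusted p = 0.0145), the sole rise among members, and all doxycycline samples lay above all DMSO samples. The rise did not pass without doxycycline replicate 1 (0.14, edgeR adjusted p = 0.0715) or 3 (0.16, adjusted p = 0.0680), and with the correction NUP210 stood at -0.04 (adjusted p = 0.525). POM121 overlapped between groups at 0.05 (edgeR adjusted p = 0.538) and fell with the correction (-0.14, adjusted p = 0.0153); its near-identical copy POM121C can share reads with it. NUP210L, a testis gene, had 3 to 8 reads a library and was not tested.

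Levels of the members, set per length of the longest transcript in GENCODE 29, spanned a wide range. KPNA2 was highest at 189.6 CPM per kilobase in doxycycline and 207 in DMSO, followed by RAN at 141 and 178. KPNB1, NUP62 and CSE1L came next, at 109, 108 and 104 CPM per kilobase in doxycycline and 135, 128 and 135 in DMSO; these 3 were closer to each other in either group than a gene's 2 groups were. RANBP1 (93.2 in doxycycline and 112 in DMSO), NUP210 (81.5 and 72.9) and RCC1 (75.4 and 86.8) followed, and the order of NUP210 and RCC1 differed between the groups. Low levels were those of NUP35 (4.18 and 5.27), XPO4 (2.96 and 3.17) and KPNA5 (1.04 and 1.16 CPM per kilobase). Across the 49 members the Pearson r of fold change with log2 mean CPM was -0.03, and -0.27 for the corrected fold change, a description over genes of the same libraries.

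**Figure D4:**
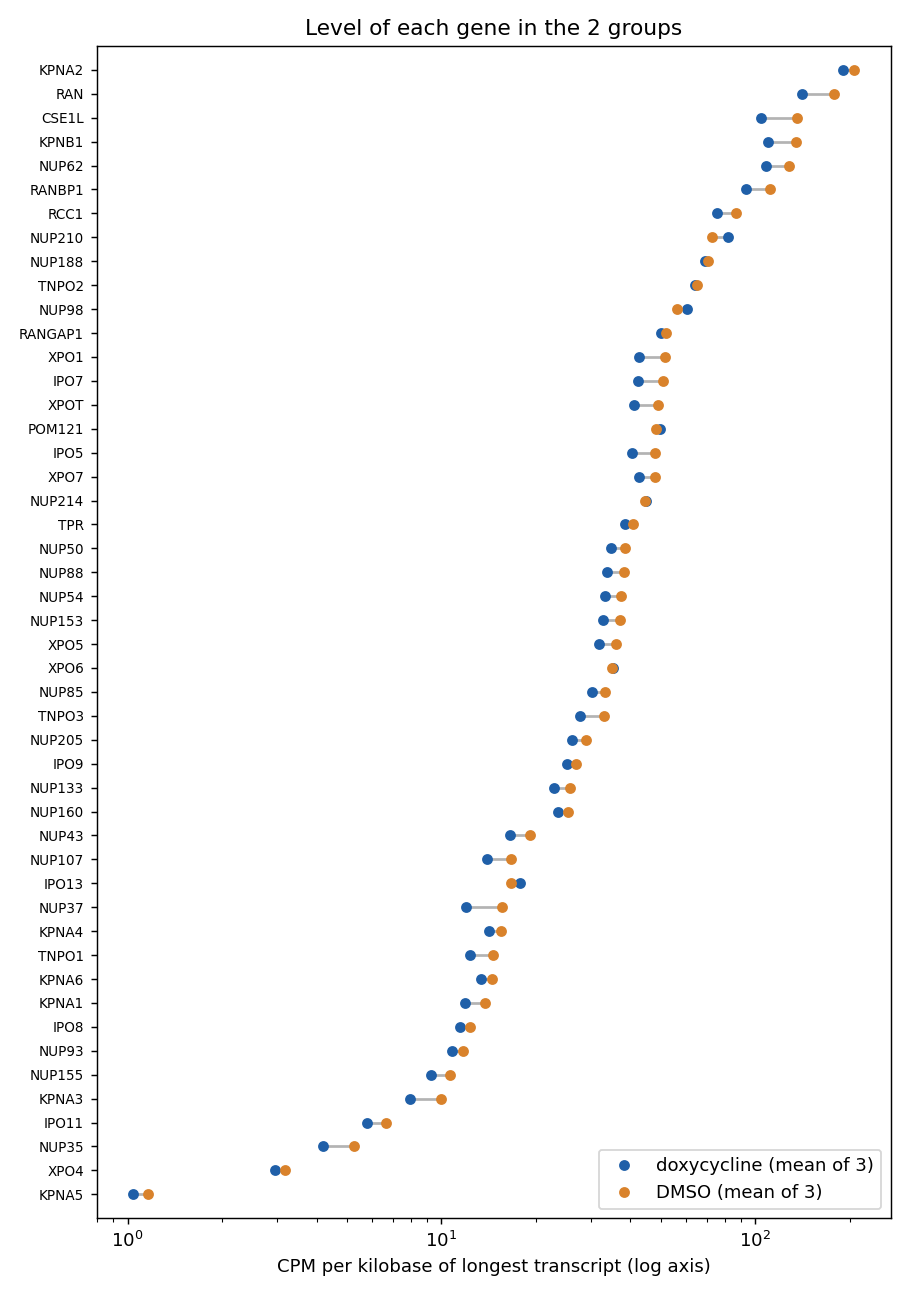
Mean level of each member in CPM per kilobase of longest transcript (log axis) in doxycycline (blue) and DMSO (orange) samples, for members above 0.5 CPM per kilobase. KPNA2 and RAN stand at the top and KPNA5 at the bottom, and most blue points lie left of their orange partner.

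Other genes of the pathway that the symbol rule leaves out gave a smaller share of calls. Of 38 tested, 11 fell and 0 rose (2 higher at unadjusted p under 0.05, 0 by DESeq2), or 28.9% lower against 15.5% of all tested genes, with a median of -0.10. With the correction 8 of 37 fell, or 21.6% against 11.4% of all, at a median of -0.04. Remaining pore proteins gave 5 of 12 lower (41.7%). SEH1L, of the Y complex, had 58.1, 61.7 and 63.8 CPM in doxycycline against 79.6, 76.0 and 77.0 CPM in DMSO samples (log2 -0.34, SE 0.0540, edgeR adjusted p = 4.70e-05; -0.24 corrected). NDC1, a transmembrane anchor, fell by 0.35 (SE 0.0598, edgeR adjusted p = 0.000110; -0.25 corrected) and AAAS, also called ALADIN, by 0.18 (SE 0.0499, edgeR adjusted p = 0.00920; -0.16 corrected), AAAS not without doxycycline replicate 3 (adjusted p = 0.0690). NUPL1 and RAE1 were the other two that fell, by 0.17 and 0.15, and neither call held with the correction (NUPL1 -0.07, edgeR adjusted p = 0.315; RAE1 -0.11, adjusted p = 0.0590) or under upper-quartile or library-size scaling. NUPL1 was also lost with doxycycline replicate 1 (adjusted p = 0.0565) or 3 (0.106) left out. RAE1 was lost with DMSO replicate 1 (edgeR adjusted p = 0.0770) or 2 (0.0717), or doxycycline replicate 2 (0.0974) or 3 (0.103), left out. The list thus gave 3 lower with the correction and 2 without doxycycline replicate 3. Of 7 other carriers and RAN partners 1 fell, or 14.3%, near the share over all tested genes: NUTF2, which imports RAN bound to GDP, at 241 ± 8.06 CPM in doxycycline and 277 ± 16.6 CPM in DMSO samples (SD, n = 3 each; log2 -0.20, edgeR adjusted p = 0.00427; -0.14 corrected). SENP2 and RCC2 had -0.10 and -0.07 and did not pass. With the correction 3 of the 7 fell, RCC2 (-0.12, edgeR adjusted p = 0.0308) and RANBP3 (-0.11, adjusted p = 0.0495) being added, while NUTF2 was lost in the fit lacking doxycycline replicate 1 together with DMSO replicate 2 (adjusted p = 0.0595). Of 19 genes of messenger RNA export 5 fell (26.3%), led by ENY2 (-0.29, edgeR adjusted p = 0.000250), NXT2 (-0.36, adjusted p = 0.00140) and THOC7 (-0.28, adjusted p = 0.00146), with THOC1 and NXT1 the other two; none of these 5 passed with the correction, where ENY2, NXT2 and THOC7 stood at -0.11, -0.14 and -0.03. In that fit 2 other export genes fell, DDX39A (-0.18, edgeR adjusted p = 0.00530) and THOC6 (-0.15, adjusted p = 0.0357), or 10.5% of the list, near the 11.4% over all genes. Without DMSO replicate 1, 3 export genes were called lower, THOC1 (edgeR adjusted p = 0.211) and NXT1 (0.104) being lost. NXF1, the main mRNA exporter, had 0.10 and did not pass (0.05 corrected); it was called higher after upper-quartile scaling (edgeR adjusted p = 0.0208) and by library size alone (0.0204), as was MCM3AP (0.0209 and 0.0253).

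In the authors' deposited table, 48 members had an adjusted p, of which 30 were lower and 1 higher at 0.05, against 15.6% lower and 9.79% higher over the 13767 genes with one. Of these calls, 29 were also made by edgeR in the same direction; KPNA2 and IPO9 were called in that table only, and IPO11 (adjusted p = 0.0617 there) by edgeR only.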

How the data were processed

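RNA was profiled in 6 samples of RPMI-8402, 3 with doxycycline and 3 with DMSO, by strand-specific paired-end sequencing of total RNA, per the labels' protocols. The authors deposited raw counts per gene, 1 column per sample and not normalized, and a table of a DESeq2 comparison with a mean normalized signal, log2 fold changes with SE, a Wald score, and p-values with adjusted p-values. STAR 2.5.2a, featureCounts, DESeq2 1.12.4 and hg19 are named per the submitters' processing notes, without roles; annotation, strand setting and any ribosomal RNA removal are not given in the sources used here; overlapping, antisense and near-identical genes are thus uncertain.

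Genes were kept by filterByExpr at defaults (15492 genes, at least 99.88% of each library's counts), scaled with TMM and compared by edgeR's quasi-likelihood test (edgeR 4.0.16, limma 3.58.1, R 4.3.3) with treatment as sole term, Benjamini-Hochberg adjustment over all tested genes and a threshold of 0.05. SE is the size of the log2 fold change over the square root of F. CPM are shares of a library. The correction fitted, per library, natural splines (5 degrees of freedom) of GC content and log2 length of the longest GENCODE 29 transcript to the deviation of log2 CPM from the gene mean, for genes with mean log2 CPM above 2, and entered it as an offset for 15036 genes. That annotation is of GRCh38 and serves for names, GC content, length and overlap alone. Alternatives were upper-quartile scaling, library size alone, no filter, the replicate number as a block, leaving out libraries, and DESeq2 1.42.0. The fit was tested on simulated data. Members, lists and tests were chosen with earlier results of these data known. Called genes were named, with values in every sample for the Ran cycle, KPNB1, CSE1L, XPO1 and up to 3 falls and 3 rises per role; of other pathway genes, the 3 with the smallest p per list are given, and those named beyond these were chosen after their values were seen. The depth of each library limits which changes can be called, most of all for genes at low counts. The summed level of the B cell marker list is not reported here.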

Additional observations from a re-analysis of the deposited data

How the results depend on the processing

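Of the 30 called members, 19 kept their call in all 14 alternatives: RAN, RANBP1, RCC1, KPNA1, KPNA3, KPNB1, IPO5, IPO7, TNPO1, TNPO3, CSE1L, XPO1, XPO5, XPOT, NUP37, NUP107, NUP155, NUP62 and NUP88. Members called lower numbered 29, and 21 after upper-quartile scaling, 22 by library size, 29 with no filter, 30 with DESeq2 and 23 to 29 when 1 library was left out. The share called lower over all tested genes was 15.5% in the main edgeR fit, 10.2% after upper-quartile scaling and 10.4% by library size. It was 8.34% with no filter, 15.4% with DESeq2 and 11.2% to 14.7% when 1 library was left out. Members called higher numbered 1, against 3 after upper-quartile scaling (NUP98, IPO13 and NUP210), 2 by library size, 0 with the correction for GC content and length, 0 with the block and correction together, 0 with both DMSO replicate 2 and doxycycline replicate 1 left out, and 0 to 1 when 1 library was left out. Of all tested genes the share called higher was 13.8% in the main edgeR fit, 18.5% after upper-quartile scaling and 17.8% by library size. It was 10.8% with the correction, 10.2% with block and correction and 10.4% with both of those libraries left out. With 1 library left out it ran from 9.76% to 12.7%. The median of the tested members stayed between -0.19 and -0.13 in every alternative. Reversals among called members were those of NUP54 (0.0148 with the correction and 0.0150 with block and correction) and NUP210 (-0.0379 in both); the cause was not tested. Further losses with upper-quartile scaling were NUP85, NUP133, NUP205, NUP50, NUP153, NUP54, XPO7 and IPO11. The labels do not state that replicate numbers pair the samples. Same-numbered samples' deviations from their group means correlated at -0.0576, -0.227 and 0.0858, and those of unlike-numbered samples at -0.285 to 0.323. With 3 libraries a group, these values cannot decide whether the samples were paired. With the replicate block 27 members were called lower and 1 higher, with a median of -0.17, and with block and correction 29 were lower. The shares over all tested genes were 14.2% lower and 12.9% higher with the block, and 10.8% lower with block and correction. Counts of NUP210L, KPNA7 and IPO4 were too low to show small changes.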
